A study of Mus musculus with 8 samples.

Results

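Dbp, Tef and Hlf encode the 3 PAR bZIP transcription factors, and the accessibility of their chromatin was examined in mouse muscle with and without induced loss of the clock factor BMAL1. All regions that the deposited table annotates to these genes were taken, 71 of 489637 regions and 3 of 27552 genes. Dbp had 27 regions on chromosome 7, Tef 10 on chromosome 15 and Hlf 34 on chromosome 11. Accessibility was assayed with ATAC-seq, where a transposase cuts and tags open DNA, on nuclei of whole gastrocnemius (a calf muscle) from mice labelled with a time of 6 months. All 8 libraries carried the genotype Cre+:iMSBmal1 fl/fl, so the vehicle controls also held the Cre transgene and the floxed Bmal1 allele. The 4 Vehicle libraries had received vehicle and the 4 iMSBmal1KO libraries tamoxifen, which means that tamoxifen and the knockout cannot be told apart. Each library was made from 2 gastrocnemius muscles. The labels name neither the promoter that drives Cre nor the time of day of collection. They do not say that libraries came from separate mice, so the p-values measure the spread between these samples.

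PAR bZIP proteins, named for a region rich in proline and acidic residues beside their leucine zipper, bind D-box DNA elements as dimers and activate transcription. BMAL1 with its partner CLOCK binds E-boxes and drives rhythmic transcription of Dbp in particular, so these genes are regarded as outputs of the clock. The repressor NFIL3 competes for the same D-boxes.

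RefSeq sequence before the annotated starts (GRCm38.p6) is shown because accessible regions of all 3 genes overlapped it. The runs are written 5′ to 3′ on the strand of the gene. Those of Tef and Hlf end at the base before a RefSeq start. The upstream Tef start and the Hlf start lie 57 and 22 bp from the first starts in the deposited annotation. The Dbp run is cut at the base before its first start in that annotation. Capitals mark CACGTG, the canonical E-box, in the Tef runs and TGACGTCA, a cAMP response element, in the Hlf run.
Dbp, chr7:45704997-45705087, plus strand: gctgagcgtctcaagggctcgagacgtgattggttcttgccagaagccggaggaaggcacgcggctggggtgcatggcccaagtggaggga
Tef, upstream start, chr15:81802423-81802672, plus strand: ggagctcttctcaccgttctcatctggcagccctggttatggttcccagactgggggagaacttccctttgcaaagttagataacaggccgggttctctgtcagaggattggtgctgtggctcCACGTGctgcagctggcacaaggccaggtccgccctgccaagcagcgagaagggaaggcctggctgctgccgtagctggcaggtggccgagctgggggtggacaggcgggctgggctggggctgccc
Tef, downstream start, chr15:81811164-81811413, plus strand: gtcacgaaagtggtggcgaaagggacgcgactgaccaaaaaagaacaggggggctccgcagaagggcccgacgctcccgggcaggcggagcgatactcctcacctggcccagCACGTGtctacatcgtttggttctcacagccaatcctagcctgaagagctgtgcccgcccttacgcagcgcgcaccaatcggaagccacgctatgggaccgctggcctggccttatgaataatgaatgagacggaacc
Hlf, chr11:90390918-90391167, minus strand: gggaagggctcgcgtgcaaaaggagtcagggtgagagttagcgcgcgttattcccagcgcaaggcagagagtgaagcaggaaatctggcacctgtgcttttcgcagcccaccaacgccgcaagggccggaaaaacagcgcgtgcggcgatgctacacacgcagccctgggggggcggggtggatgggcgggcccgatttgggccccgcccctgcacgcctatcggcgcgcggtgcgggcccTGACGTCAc

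With -1 as the base before the RefSeq start, the E-box lay at -127 of the upstream Tef start and at -138 of the downstream one. CACGTG on either strand was present in 6.02% of 32817 windows of 250 bases. The response element lay at -9 of the Hlf start, and TGACGTCA was present in 1.55% of windows. That element was searched for after the Hlf sequence had been seen. The E-box variant CACGTT (3.85% of windows) and the D-boxes TTATGTAA (0.817%) and TTACGTAA (0.113%) had no match in these 4 runs, of which that of Dbp covers only 91 bases. The motifs do not overlap each other in these runs. A match describes letters and not a bound site.

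The deposited value is a signal in which reads were scaled by 1 factor for each library. Depth, counted within the listed regions only, ran from 4.31 to 29.5 M read equivalents (M, units of 1000000 reads). Vehicle replicate 4 was the shallowest, with 24.9% of regions at 0 and 16.5% of its signal in mitochondrial regions. The targeted gene, listed as Arntl, held a summed signal of 1942 to 2688 in Vehicle and 3023 to 3421 in iMSBmal1KO, with a log2 change of 0.46 (adjusted p = 0.374 in limma). Of its 37 tested regions 1 passed the threshold, higher in iMSBmal1KO (log2 change 1.08, adjusted p = 0.0468 in limma). Accessibility does not measure loss of its product. Chromatin at fast fibre genes was open in every library, with a summed signal at 6 marker starts of 8301 to 13753 in Vehicle and 10428 to 12107 in iMSBmal1KO. The 3 endothelial markers summed to 59.7 to 90.7 and 66.5 to 89.9, the 3 fibro-adipogenic markers to 360 to 542 and 411 to 559, and the 3 macrophage markers to 3.13 to 7.46 and 5.14 to 12.5. The 3 satellite cell markers summed to 84.2 to 123 and 85.9 to 107, and the 3 slow fibre markers to 75.7 to 116 and 62.7 to 84.0. Adgre1 of macrophages, Calcr of satellite cells and Alb of hepatocytes had no signal at their starts. The 3 hepatocyte markers, of a cell type outside this tissue, summed to 10.7 to 25.0 and 10.9 to 26.3, all of it at Apoa1. All of these ranges overlapped between groups, and their part in the results was not tested. In bulk nuclei, fewer cells of a type and less accessible chromatin per cell cannot be told apart.

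Tef was the most accessible of the genes per length and Hlf the least. Per kb of annotated region, signal was 1421 ± 250 in Vehicle against 1199 ± 137 in iMSBmal1KO at Tef (SD, n = 4 each), 593 ± 93.6 and 563 ± 80.7 at Dbp, and 177 ± 44.9 and 149 ± 22.2 at Hlf. The 8 libraries ran from 1078 to 1698 at Tef, from 459 to 699 at Dbp and from 110 to 205 at Hlf, so the ranges of neighbours in this order did not overlap. 

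Summed over all of its regions, no gene differed between the groups past the threshold, an adjusted p under 0.05 in limma with Benjamini-Hochberg adjustment over 22224 genes. That threshold was passed by 0.13% of all genes. The summed signal of Dbp in the order of the replicate numbers was 2176, 1764, 1953 and 1488 in Vehicle, and 1988, 1908, 1428 and 1687 in iMSBmal1KO. The groups overlapped, with a log2 change of -0.07 ± 0.15 (SE, adjusted p = 0.877 in limma). The sign of the Dbp change depended on single libraries, since it was 0.01 without Vehicle replicate 1 and 0.02 without iMSBmal1KO replicate 3. The summed signal of Tef was 5379, 4770, 4361 and 3493 in Vehicle and 3416, 4226, 3438 and 4118 in iMSBmal1KO, a log2 change of -0.23 ± 0.15 (adjusted p = 0.588 in limma). All 4 iMSBmal1KO libraries lay below the 3 highest Vehicle libraries, and Vehicle replicate 4 lay among them. The summed signal of Hlf was 936, 895, 894 and 500.3 in Vehicle and 698, 809, 569 and 644 in iMSBmal1KO, a log2 change of -0.21 ± 0.19 (adjusted p = 0.679 in limma). Vehicle replicate 4 was the lowest library and the other Vehicle libraries the 3 highest. Without Vehicle replicate 4 the changes were -0.17, -0.35 and -0.43 for Dbp, Tef and Hlf (adjusted p = 0.877, 0.416 and 0.413 in limma). The median change of all genes was 0.11 on this scale, log2(signal + 1), which understates changes of weak features.

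**Figure D1:**
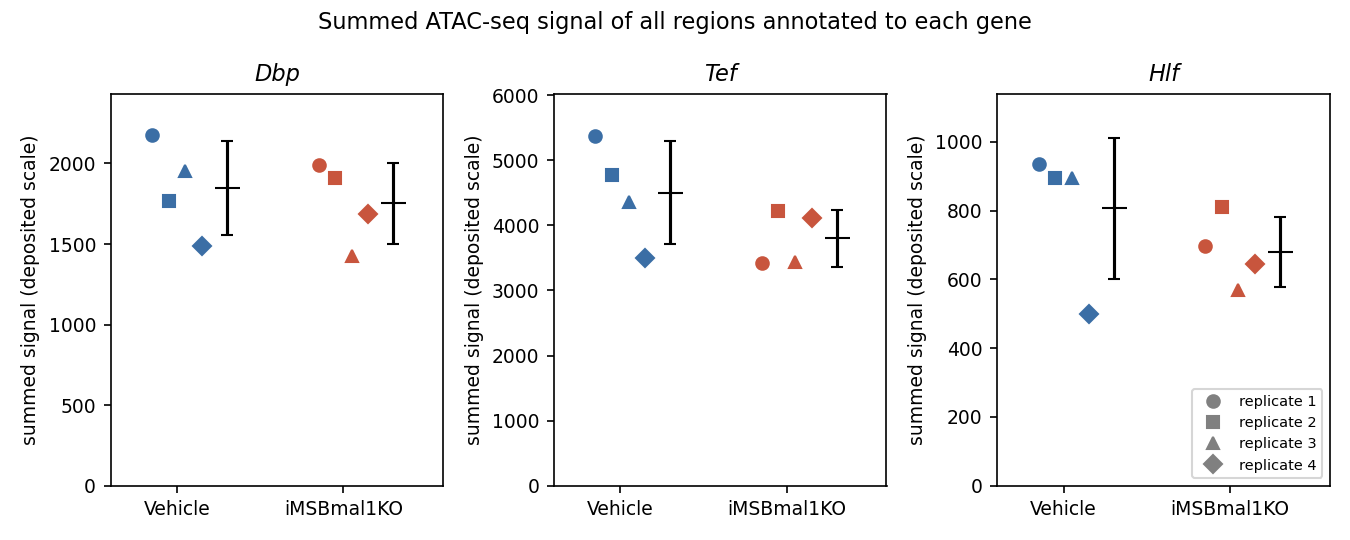
Summed ATAC-seq signal of all regions annotated to Dbp, Tef and Hlf (y axes from 0, deposited signal scale), with 1 point per library and the mean and SD of each group of 4. Vehicle and iMSBmal1KO points overlap for all 3 genes, and the lowest Hlf point is Vehicle replicate 4 at 500.3.

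No difference in response between the genes was detected beyond the spread. The log2 ratio of Dbp to Tef within a library, which does not depend on the scaling, was -1.28 ± 0.12 in Vehicle against -1.12 ± 0.23 in iMSBmal1KO (SD, n = 4 each). The difference of 0.16 had an exact two-sided permutation p of 0.314 over the 70 arrangements of libraries (0.471 adjusted over 3 pairs of genes). With so few arrangements, 1 pair alone could not pass 0.05 after adjustment, even with its groups fully apart. For Dbp over Hlf the difference was 0.14 (exact permutation p of 0.314, 0.471 adjusted). For Tef over Hlf it was -0.02 (exact permutation p of 0.914, 0.914 adjusted), and it changed sign when Vehicle replicate 4 (0.08), iMSBmal1KO replicate 1 (0.05) or iMSBmal1KO replicate 2 (0.01) was left out.

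Among single regions, 36 of the 71 passed the filter on low signal, 23 of Dbp, 6 of Tef and 7 of Hlf. The 35 others had a mean signal of 0.557 to 9.07 and were not tested. None of the 36 was past the threshold by limma over 124901 regions, which 0.0881% of all regions passed, and none by limma-voom. The number of regions past it over the whole table, 110, became 32, 41 and 281 when Vehicle replicates 1, 3 and 4 were left out in turn, and 43, 39 and 57 when iMSBmal1KO replicates 2, 3 and 4 were. At an unadjusted p under 0.05 there were 11 of the 36 (30.6%), 9 lower and 2 higher in iMSBmal1KO, against 9.22% of all regions, of which 6.59% were higher and 2.63% lower. These were 7 regions of Dbp, 1 of Tef and 3 of Hlf. The groups did not overlap at 7 of the 36 (19.4%), 6 lower and 1 higher, against 5.48% of all regions, 3.62% higher and 1.87% lower. The log2 change was negative at 25 of the 36, against 38.0% of all regions. The median change was -0.06 for Dbp, -0.41 for Tef and -0.22 for Hlf, and 0.12 over all regions. Regions of a gene lie close together and share libraries, so they are not independent.

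**Figure D2:**
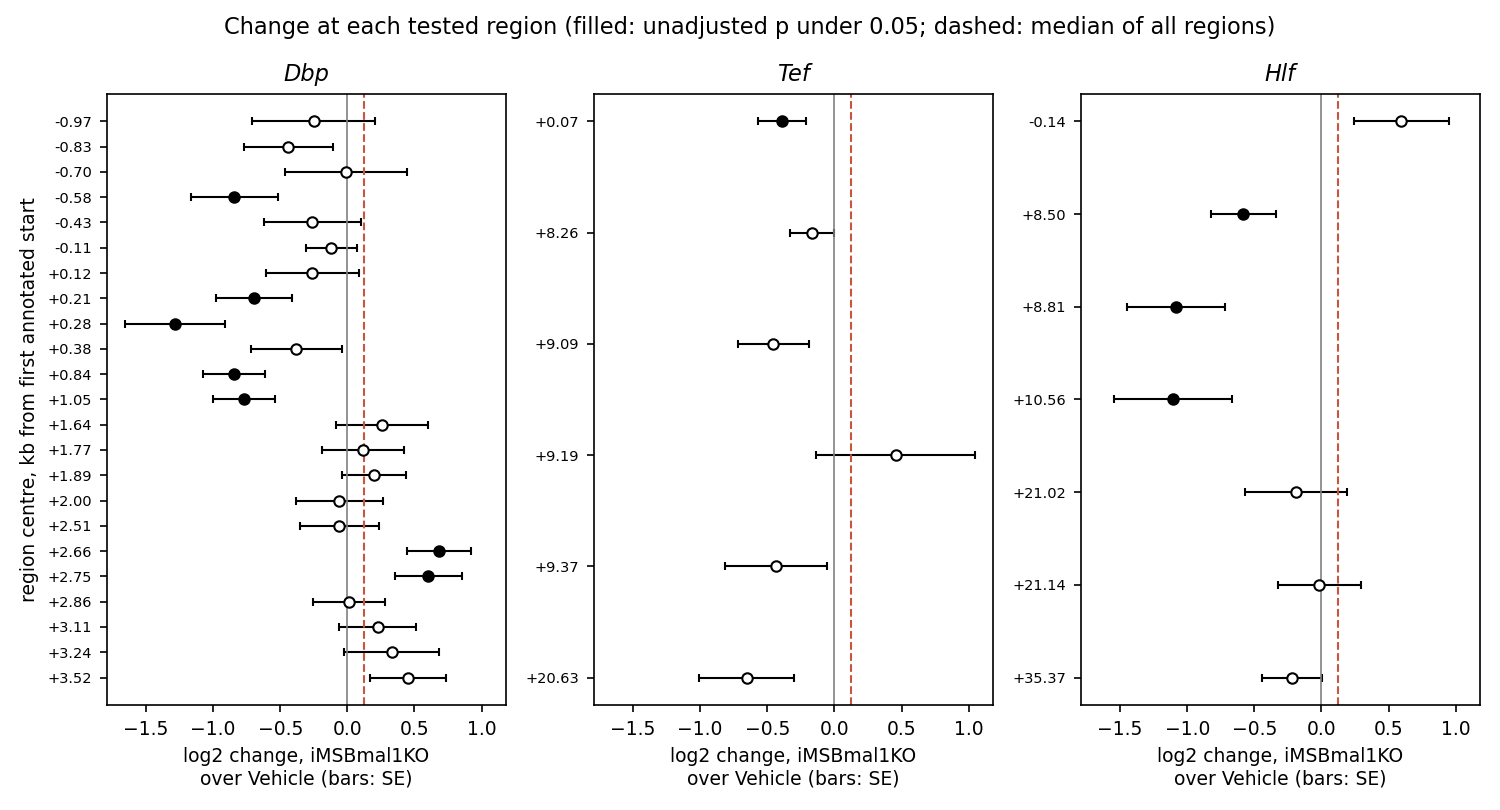
Log2 change (iMSBmal1KO over Vehicle, bars SE) at each of the 36 tested regions of Dbp, Tef and Hlf, ordered by distance from the first annotated start of the gene (y axis, kb). Filled points have an unadjusted p under 0.05 and the dashed line is the median of all regions, 0.12; the values run from -1.28 to 0.68, and 25 lie below 0.

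At Dbp, with 7 of 23 tested regions (30.4%) at an unadjusted p under 0.05, against 3 of 7 (42.9%) at Hlf and 1 of 6 (16.7%) at Tef, the lower values lay around the start and in intron 1 and the higher ones just before a downstream annotated start. The strongest region, chromosome 7, 45704770 to 45705183, covers the first annotated start and the printed sequence. Its signal was 957, 715, 758 and 647 in Vehicle and 827, 798, 538 and 676 in iMSBmal1KO, so the groups overlapped. Its log2 change was -0.12 ± 0.19 (adjusted p = 0.845 in limma), and 0.01 without iMSBmal1KO replicate 3.

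The intron 1 region of Dbp, 45705824 to 45706030, had the smallest p of all members. Its signal was 124, 84.3, 104 and 128 in Vehicle and 58.2, 51.0, 64.4 and 67.7 in iMSBmal1KO. Every iMSBmal1KO library lay below every Vehicle library, with a log2 change of -0.84 ± 0.23 (SE, adjusted p = 0.273 in limma). The next region, 45706063 to 45706223, is annotated to the start of the transcript Dbp-205 but lies upstream of it, at -880 bp. It had 116, 91.4, 153 and 103 in Vehicle and 71.9, 66.9, 58.4 and 69.0 in iMSBmal1KO. These groups did not overlap either (log2 change -0.77 ± 0.23, adjusted p = 0.351 in limma). Depth at these regions was 33 to 241 reads per library.

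Weaker regions near the first Dbp start, 1 of them over the start of the transcript Dbp-204, had lower means in iMSBmal1KO as well. The region 45705336 to 45705396 had a signal of 25.4 ± 8.78 in Vehicle against 9.66 ± 3.52 in iMSBmal1KO (SD, n = 4 each), the lowest log2 change of all members, -1.28 ± 0.37 (adjusted p = 0.325 in limma). The groups overlapped there through Vehicle replicate 2. At 45705257 to 45705335, over the Dbp-204 start, signal was 39.1 ± 8.58 and 23.5 ± 3.49 (log2 change -0.69 ± 0.28, adjusted p = 0.502 in limma), without overlap. At 45704463 to 45704550, upstream of the first start, it was 24.8 ± 6.15 and 13.2 ± 2.78 (log2 change -0.84 ± 0.32, adjusted p = 0.490 in limma). These 3 regions held at most 56 reads in a library.

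Before the start of the transcript Dbp-202 the direction was opposite. At 45707701 to 45707797 signal was 99.1, 92.5, 110 and 68.8 in Vehicle and 191, 170, 101 and 142 in iMSBmal1KO. All but iMSBmal1KO replicate 3 lay above the Vehicle libraries (log2 change 0.68 ± 0.24, adjusted p = 0.455 in limma). The adjoining region, 45707798 to 45707885, had 69.3, 76.0, 76.7 and 43.8 in Vehicle and 113, 117, 79.6 and 91.6 in iMSBmal1KO. This region was named after its values were seen, because its groups do not overlap, so the lack of overlap supports nothing further (log2 change 0.60 ± 0.25, adjusted p = 0.505 in limma). The region at the start itself, 45707886 to 45708008, had a log2 change of 0.01 (adjusted p = 0.991 in limma). The intron 2 region, 45708485 to 45708722, had a signal of 115 ± 44.0 and 145 ± 12.02 and a log2 change of 0.45 ± 0.28 (adjusted p = 0.611 in limma), which was 0.09 without Vehicle replicate 4.

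The Dbp regions abut or nearly abut, and merging those up to 50 bp apart gave 5 islands. Merging was chosen after the data had been seen, and 0.143% of all merged regions passed the threshold. None of the 18 tested islands of the 3 genes did (limma), and 5 had an unadjusted p under 0.05, against 9.5% of all. The intron 1 island, 45705824 to 45706223, is named for 1 of its 2 regions, the other being that annotated to the Dbp-205 start. It held 240, 176, 257 and 231 in Vehicle and 130, 118, 123 and 137 in iMSBmal1KO. The groups stood apart, with a log2 change of -0.82 ± 0.20 (adjusted p = 0.143 in limma, and 0.0809 without Vehicle replicate 4). The start island changed by -0.21 ± 0.18 on the log2 scale (adjusted p = 0.716 in limma). The island around the Dbp-202 start, 45707549 to 45708008, held 268, 242, 261 and 175 in Vehicle and 398, 360, 248 and 302 in iMSBmal1KO (log2 change 0.46 ± 0.21, adjusted p = 0.507 in limma). The other islands had log2 changes of 0.09 and 0.33.

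**Figure D3:**
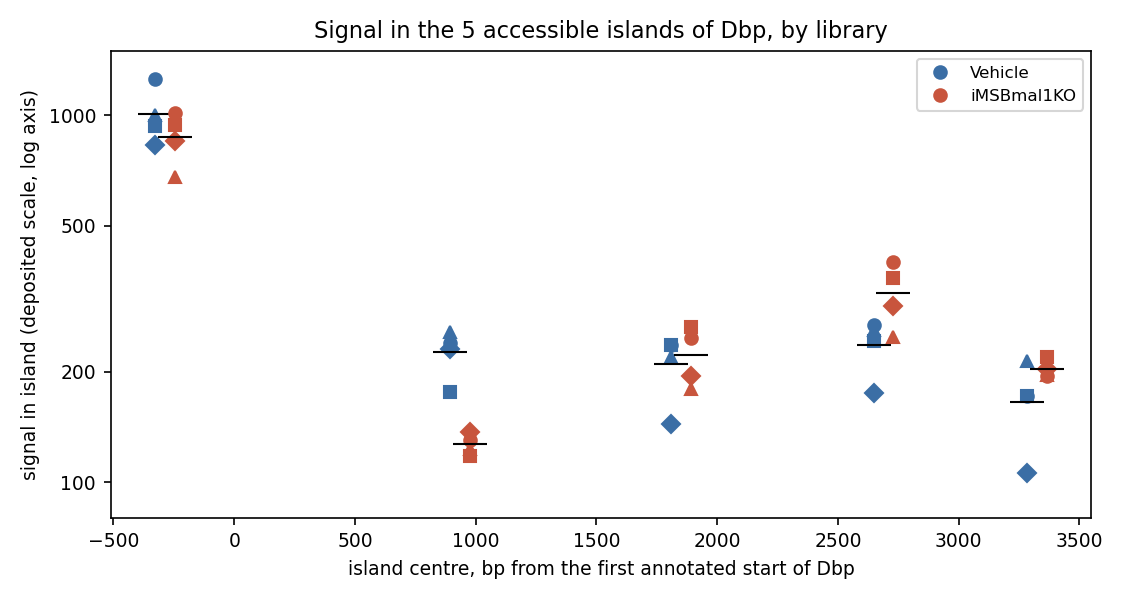
Signal in the 5 accessible islands of Dbp (y axis logarithmic, deposited scale) against the distance of the island's centre from the first annotated start (x axis, bp, groups drawn side by side), with 1 point per library and a bar at each group mean. In the intron 1 island the iMSBmal1KO libraries lie between 118 and 137 and the Vehicle libraries between 176 and 257; at the other islands the groups overlap.

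Ratios within a library, chosen after their values were seen and therefore untested, show the Dbp profile without library scaling. The intron 1 island held 0.228 ± 0.0461 of the start island's signal in Vehicle (0.188 to 0.278) and 0.148 ± 0.0268 in iMSBmal1KO (0.125 to 0.180). The Dbp-202 island held 0.235 ± 0.0277 (0.211 to 0.260) and 0.373 ± 0.0163 (0.355 to 0.391) of it. The groups did not overlap in either ratio. By gene section, Intron 1 and Intron 2 of Dbp each hold only 1 region, already named above, and are no further evidence. Fitted among sections, Intron 1 had a log2 change of -0.84 ± 0.21 (adjusted p = 0.148 in limma) and Intron 2 one of 0.45 (adjusted p = 0.566 in limma). Among tested sections that sum several regions, log2 changes ran from -0.58 at Hlf Intron 2 (adjusted p = 0.464 in limma) to 0.22 at Dbp CDS Exon 2 (adjusted p = 0.753 in limma). None of the 10 tested sections of the 3 genes passed the threshold, which 0.148% of all sections passed.

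Tef, a PAR bZIP factor expressed in many tissues, was open almost only at its starts, with 99.5% of its signal within 1000 bp of an annotated start in both groups. The upstream start region, chromosome 15, 81802394 to 81803214, holds the first printed E-box. Its signal was 1450, 1223, 1190 and 966 in Vehicle and 844, 1034, 773 and 1026 in iMSBmal1KO. Only Vehicle replicate 4 lay within the range of the iMSBmal1KO libraries (log2 change -0.39 ± 0.18, adjusted p = 0.530 in limma). With abundance-dependent loess scaling it was past the threshold, with a log2 change of -0.49 (adjusted p = 0.0301 in limma). The downstream start region, 81810253 to 81811733, which is the strongest region of the 3 genes and holds the second printed E-box, had 3758, 3353, 2947 and 2336 in Vehicle and 2443, 3027, 2547 and 2902 in iMSBmal1KO. These groups overlapped (log2 change -0.17 ± 0.17, adjusted p = 0.744 in limma). The upstream region held 0.392 ± 0.0216 of the downstream signal in Vehicle (0.365 to 0.414) and 0.336 ± 0.0223 in iMSBmal1KO (0.304 to 0.354), also a ratio picked after its values were seen.

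Of the weaker Tef regions, 81811770 to 81811868 had a log2 change of -0.45 ± 0.27 (adjusted p = 0.592 in limma). At the transcript end, 81823270 to 81823447, signal was 14.8 ± 2.78 in Vehicle against 8.93 ± 0.792 in iMSBmal1KO without overlap (log2 change -0.65 ± 0.35, adjusted p = 0.571 in limma), a region named after its values were seen.

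Hlf, which encodes hepatic leukemia factor and was found in a leukemia fusion gene, held 61.6% ± 6.61 of its signal within 1000 bp of an annotated start in Vehicle against 63.3% ± 1.27 in iMSBmal1KO (SD, n = 4 each). Of its 34 regions, 27 were too weak to test. Its first start region, chromosome 11, 90390906 to 90391155, overlaps the printed Hlf sequence. Signal there was 161, 203, 163 and 50.03 in Vehicle and 198, 240, 157 and 188 in iMSBmal1KO. Vehicle replicate 4 was the lowest library by far, and the log2 change of 0.59 ± 0.36 (adjusted p = 0.602 in limma) was 0.15 without it. The strongest Hlf region, 90382133 to 90382654, is annotated to the start of the shorter transcript Hlf-204 but lies upstream of it, at -197 bp. The region over that start, 90381889 to 90381945, had a mean signal of 0.765 and was not tested. The strongest region had 339, 270.2, 357 and 156 in Vehicle and 170, 203, 162 and 181 in iMSBmal1KO. The 3 other Vehicle libraries lay above all iMSBmal1KO libraries and Vehicle replicate 4 below them (log2 change -0.58 ± 0.24, adjusted p = 0.505 in limma). Without Vehicle replicate 4 the change was -0.84 (adjusted p = 0.0523 in limma).

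Merged with its neighbour, 90382052 to 90382113, also upstream of the Hlf-204 start, the strongest Hlf region changed by -0.62 ± 0.23 (adjusted p = 0.439 in limma). Without Vehicle replicate 4, the island was past the threshold, with a log2 change of -0.85 (adjusted p = 0.0304 in limma). The neighbour alone held 17.7 ± 3.08 in Vehicle against 7.93 ± 2.12 in iMSBmal1KO without overlap (log2 change -1.09 ± 0.36, adjusted p = 0.432 in limma), on 4 to 21 reads per library. An Intron 2 region, 90380247 to 90380420, had 15.3 ± 4.68 and 6.74 ± 2.96, again without overlap (log2 change -1.11 ± 0.44, adjusted p = 0.498 in limma). The Intron 3 region 90355302 to 90355750 had a log2 change of -0.22 ± 0.22 (adjusted p = 0.751 in limma). The ratio of the strongest Hlf region, upstream of the Hlf-204 start, to the Hlf-201 start region was 2.19 ± 0.736 in Vehicle (1.33 to 3.13) and 0.924 ± 0.0876 in iMSBmal1KO (0.847 to 1.03), a ratio picked after its values were seen.

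**Figure D4:**
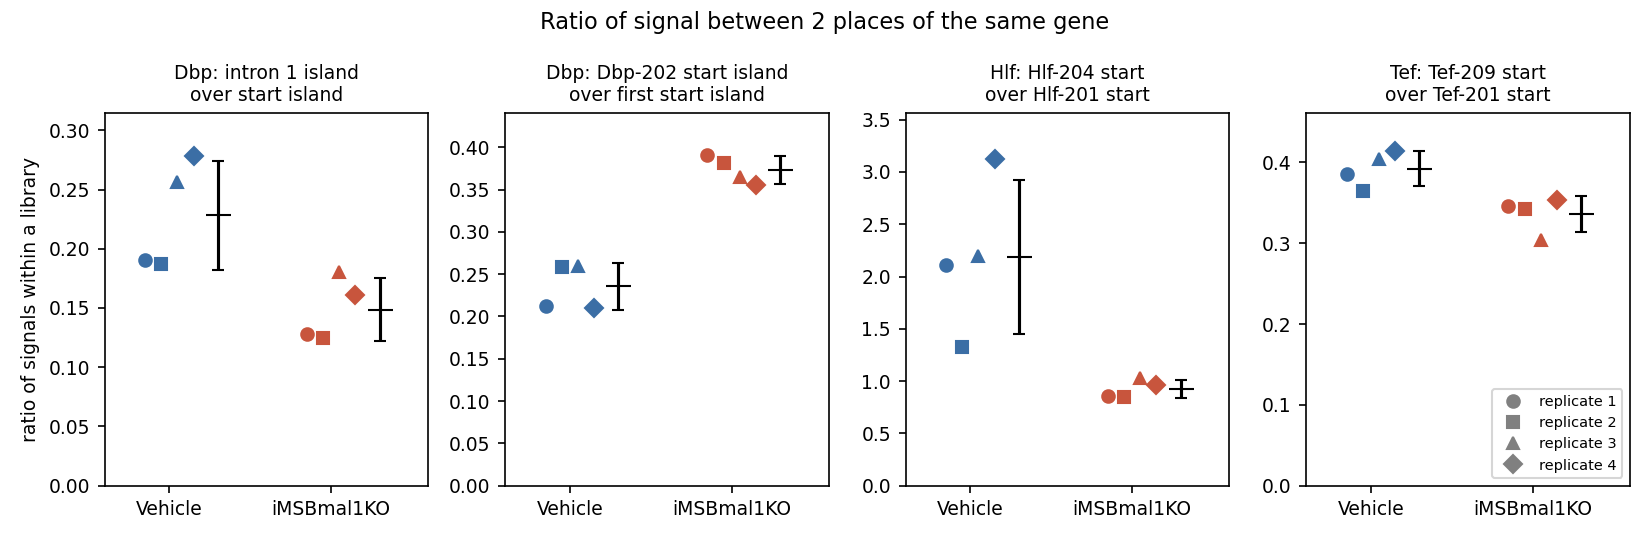
Ratio of signal between 2 places of the same gene in each library (y axes from 0, no unit), with 1 point per library and the mean and SD of each group of 4. In the Hlf panel, Hlf-204 start stands for the region upstream of that start. In each panel the groups do not overlap, for example 0.211 to 0.260 in Vehicle and 0.355 to 0.391 in iMSBmal1KO for the Dbp-202 island over the start island; the ratios were picked after their values were seen and carry no test.

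Other genes of the pathway were counted by lists drawn up with earlier results of these data known. Nfil3, the D-box repressor, had 15 tested regions, of which 0 passed the threshold and 0 had an unadjusted p under 0.05 (limma), with a median log2 change of 0.16. Among clock genes that carry D-boxes (Per1, Per2, Per3, Cry1, Rora and Rorb), 2 of 186 tested regions passed, both lower, against 0.0881% of all regions, and 17 (9.14%) had an unadjusted p under 0.05, 14 of them lower, against 9.22% of all regions. These were a Per2 region (log2 change -1.79 ± 0.29, adjusted p = 0.0145 in limma) and a Rora intron region (-2.16 ± 0.29, adjusted p = 0.00204 in limma). The median change over all 186 regions was -0.06. Rora held 146 of these regions and 9 of the 17 with an unadjusted p under 0.05. At Per1 such regions were 1 of 13, at Per2 3 of 11 and at Per3 2 of 5. At Cry1 they were 2 of 9 and at Rorb 0 of 2. By gene the median was -0.34 at Per1, -0.35 at Per2, -0.46 at Per3, 0.46 at Cry1, 0.01 at Rora and -0.08 at Rorb. Among 4 further E-box targets, Cry2, Ciart, Bhlhe40 and Bhlhe41, 0 of 24 tested regions passed (limma), 4 (16.7%) had an unadjusted p under 0.05, all lower, against 9.22% of all regions, and the median was -0.02. Of 10 genes described as PAR bZIP targets in liver and brain, 4 had tested regions, 37 in all. None passed (limma), 2 (5.41%) had an unadjusted p under 0.05, both lower, a share below the 9.22% of all regions, and the median was -0.13.

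The genes nearest in pattern to each member across the 8 libraries, among 12897 genes, were Abhd17a for Dbp (Pearson r of 0.976), Lrig1 for Tef (0.992) and Slc12a2 for Hlf (0.980). Between members r was 0.658 for Dbp and Tef, 0.765 for Dbp and Hlf and 0.785 for Tef and Hlf. Many genes were nearer, since Hlf ranked 455 and Tef 1041 for Dbp. For Tef, Hlf ranked 846 and Dbp 1906, and for Hlf, Tef ranked 444 and Dbp 555. All r values describe log2 summed signal, centred on the median over genes in each library, over points that share library depth and groups. Within 10000 bp of the member genes, 6 tested regions beside Dbp had a median log2 change of 0.22 and 20 beside Tef one of -0.40, against a median of -0.06 and -0.41 for the regions of the genes themselves. None of these neighbouring regions passed the threshold (limma), against 0.0881% of all regions. An unadjusted p under 0.05 was found at 1 of the 6 beside Dbp, higher, and 1 of the 20 beside Tef, lower, against 9.22% of all regions. The 10 regions beside Hlf were too weak to test.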

How the data were processed

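The authors deposited 1 table with a signal per region and library, which the labels do not define further. In each library 98.3% to 99.8% of its non-zero values were whole multiples of 1 step, within a tolerance of 0.02 reads, so values were read as counts scaled by 1 factor for each library, and values over the step are called read equivalents. Per the submitters' processing notes, Partek, Bowtie2, MACS2 and DESeq2 were used with the builds mm10 and GRCm39, with no role given. The transcript bounds of the members lay within 165 bp of RefSeq GRCm38.p6 genes, so coordinates, counted from 1, are taken to be of that build. The time of day, duplicate removal and transposase shift are not given in the sources used here.

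All 8 libraries entered 1 fit, limma-trend with robust empirical Bayes (limma 3.58.1, R 4.3.3) on log2(signal + 1), with group as the only term. The plan had allowed for whole counts, which the table does not hold. Regions needed 10 reads at the median depth in 4 libraries and 15 in all, which left 124901. P-values were adjusted over all regions, genes or gene sections of the table. The fit was tested on simulated data. Ratios between member genes were compared with exact permutation tests, and ratios within a gene were not tested.

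Named were, for each gene, any region past the threshold, otherwise up to 6 with the smallest unadjusted p under 0.05, and the 3 of highest mean signal. Exceptions are marked. The members and lists were chosen with earlier results of these data known. The replicate numbers were not used to pair libraries in the main fit. Deviations of same-numbered libraries correlated at -0.064 to 0.14. Many regions are weak, so these correlations cannot decide whether the numbers mark a pairing. Alternatives covered scaling, filter, pseudocount, threshold, a replicate block, limma-voom, merged regions and each library left out.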

Additional observations from a re-analysis of the deposited data

Results flagged for a closer look

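Among 48 groups of 4 libraries examined at the member genes and their named regions, 4 had a library far from the other 3 by Dixon's test. Chance gives such a gap in about 1 in 20 groups. The summed Hlf signal was 500.3 in Vehicle replicate 4 while its group otherwise ran from 894 to 936, with a gap to the nearest of 0.903 of the range. At the Dbp region 45704463 to 45704550, the same library had a signal of 15.6 against 26.7 to 28.8, a gap of 0.843. Vehicle replicate 4 was also the library with the lowest depth and the highest mitochondrial share, and their part in these values was not tested. At the Dbp region 45705336 to 45705396, Vehicle replicate 2 had 12.3 against 28.8 to 31.3, a gap of 0.869. At the Hlf region 90382052 to 90382113, iMSBmal1KO replicate 3 had 4.77 against 8.78 to 9.20, a gap of 0.906.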

How the results depend on the processing

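The count of regions past the threshold over the whole table was 110, 39 higher and 71 lower. It was 58 with trimmed-mean factors, 342 with loess scaling (90 higher and 252 lower), 342 with limma-voom, 195 without the filter on low signal, 36 at a threshold of 0.01 and 169 with regions up to 50 bp apart merged, and 32 to 281 when 1 library was left out. Of the members' single regions, 1 of Tef passed with loess scaling, and none of Dbp or Hlf under any of the alternatives. The summed Dbp change ran from -0.171 to 0.0226 on the log2 scale without 1 library, 0.0117 without Vehicle replicate 1 and 0.0226 without iMSBmal1KO replicate 3, and that of the strongest Dbp region from -0.201 to 0.00531, the latter without iMSBmal1KO replicate 3. The Tef over Hlf difference ran from -0.0931 to 0.0790, with 0.0790, 0.0454 and 0.0145 on the positive side. The share of Dbp signal within 1000 bp of a start differed by -2.83 percentage points (iMSBmal1KO minus Vehicle), and within 500 bp by 2.46. For Hlf the share within 1000 bp differed by 1.73 points, and by -1.31 without Vehicle replicate 4. The cause of these changes was not tested. Over named regions and alternatives, 316 of 318 comparisons kept their direction and side of the threshold. Part of this count was fixed in advance. With another filter, a replicate block or autosomes alone the log2 change is that of the main fit, so its direction could not change. No named region was past the threshold in the main fit, so the side kept is that of no call.

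With the replicate number as a block, 100 regions, 116 genes (29 without the block) and 134 gene sections (76 without it) passed, none of them of Dbp, Tef or Hlf. Whether the numbers pair the libraries could not be decided, and 1 of 8 correlated best with its own number. Weak tested regions, down to 1 read in a library, are limited by depth.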
